A study of Homo sapiens with 24 samples.

Results

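BCSCs sorted from Hs578T were compared with non-BCSCs sorted from the same line, in 6 of the 24 RNA-Seq libraries of the series, 3 per fraction. The libraries were those titled as sorted Hs578T fractions, and all genes listed were used. Hs578T is an established TNBC cell line of mesenchymal appearance, derived from a breast carcinosarcoma. Both fractions were wild type, came from culture in medium with serum and were assigned here to the same batch. BCSCs were CD24-CD44+ and ALDH+ cells, where the ALDH gate reads the activity of aldehyde dehydrogenases with a fluorescent substrate, and non-BCSCs were cells lacking both phenotypes. The labels call the replicates biological triplicates without saying what separated them, so p-values measure the spread between these samples. HCC70, another TNBC line sorted in the same way (3 libraries per fraction), is used for comparison.

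BCSCs are regarded as the cells of a tumor that can start new growth, and in culture they are enriched by surface markers or by ALDH activity. Mesenchymal breast cancer lines also make proteins typical of fibroblasts, among them fibrillar collagens, small proteoglycans and matricellular proteins, which are secreted and form or modify the extracellular matrix. Matrix synthesis, the hypoxia response, the interferon response and passage through G2 and mitosis are separate programs with well-known genes, and they were examined one by one. The gene lists were chosen with earlier results of these data known. Counts in a list above the share of all genes may follow in part from that choice.

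Expression was read as TPM, transcript levels corrected for length and scaled to a total of 1000000 per library. Of the 19283 genes listed, 13324 averaged 1 TPM or more over the 6 libraries and were tested by limma on log2(TPM + 1), a scale that understates the changes of low genes. With an adjusted p under 0.05, 953 genes (7.15%) differed, 386 (2.90%) higher and 567 (4.26%) lower in BCSCs. By the median of ratios, another scaling, the balance was the other way, with 620 higher and 573 lower, and with TPM rescaled without the abundant short RNAs RMRP and RPPH1 it was 557 higher and 596 lower. Large changes were more often falls in the TPM as deposited, with 32 genes at a log2 fold change of -1.0 or below against 5 at 1.0 or above, and 150 against 74 past 0.5 in size. The count was 343 without non-BCSC replicate 2, 390 without BCSC replicate 1 and 486 without non-BCSC replicate 1. Recovered reads per library were 28189500 to 32834574 in non-BCSCs and 30253364 to 33715701 in BCSCs. BCSC replicate 2 stood apart on the first principal component (21.45 against 7.17 and 3.07 for the other BCSC libraries), and without it 865 genes passed, 744 of them among the 953.

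**Figure D1:**
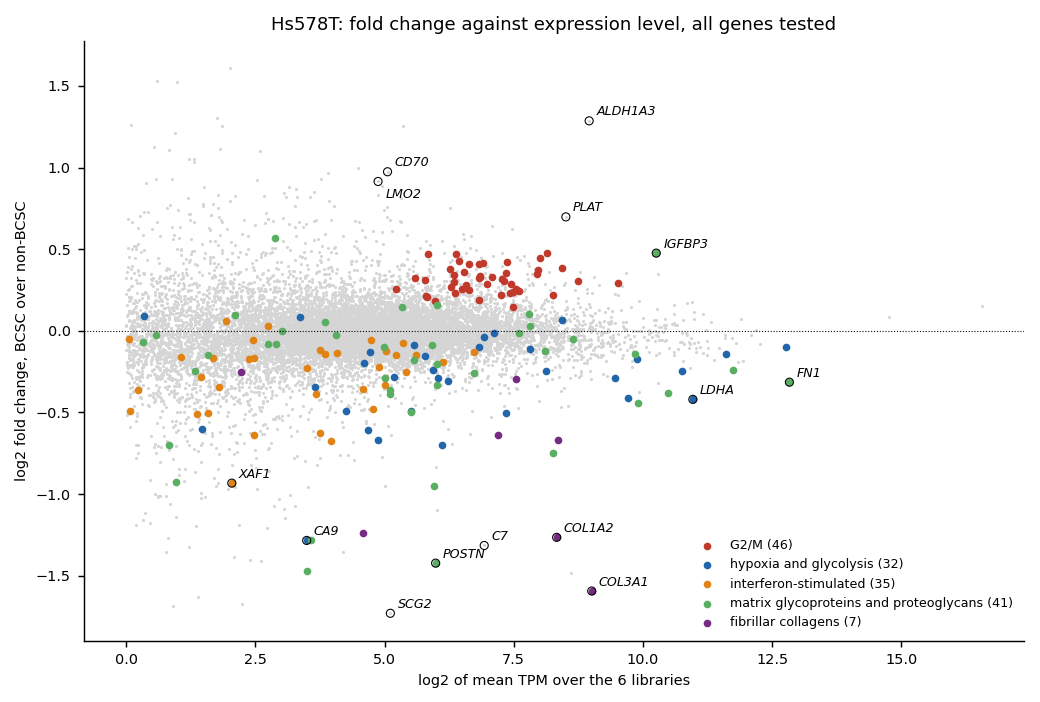
Each grey point is one of the 13324 genes tested in Hs578T, with the log2 of its mean TPM over the 6 libraries on the horizontal axis and its log2 fold change, BCSC over non-BCSC, on the vertical axis. Coloured points are the members of 5 gene lists and circled points are named genes. The fibrillar collagens, among them COL3A1 (-1.59), lie below 0 and the G2/M genes above it.

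The sort markers were examined first. ALDH1A3, an enzyme that makes retinoic acid and a common source of ALDH activity in breast cancer cells, was listed at 296, 291 and 280.0 TPM in non-BCSCs and at 701, 709 and 708 TPM in BCSCs. Among genes that reached 10 TPM in either fraction and passed, none rose further (log2 fold change 1.29, standard error 0.04, adjusted p = 8.4e-06 from limma). The gene lies at chr15:100877714-100916626 of GRCh38, and 1778 of its 5335 exon bases overlap an antisense gene. The related enzyme ALDH1A2 was at most 0.0452 TPM, and ALDH1A1 was not analysed here.

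CD44 had a log2 fold change of 0.05 (558 ± 10.1 and 579 ± 12.8 TPM, SD, n = 3) and CD24 of -0.05 (86.2 ± 7.16 and 83.1 ± 4.32 TPM), with adjusted p values of 0.51 and 0.72 from limma. The RNA values of both surface markers overlapped between the fractions, whereas those of ALDH1A3 did not. The gates read surface protein and ALDH activity rather than RNA, so these values do not measure how well the gates worked. None of the 13 genes tested among those that bind, sense or answer to retinoic acid passed. DHRS3, which turns retinaldehyde back into retinol, was among them (log2 fold change 0.13, adjusted p = 0.15 from limma).

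Most of the leukocyte and endothelial markers listed averaged under 1 TPM over the libraries. Of 7 leukocyte markers, CD68, a lysosomal protein, alone averaged 1 TPM or more, at 112 ± 4.59 and 106 ± 10.4 TPM in non-BCSCs and BCSCs, and did not pass (-0.08). The summed level of that list was 109 to 118 TPM in non-BCSCs and 97.0 to 118 TPM in BCSCs, and PTPRC, the CD45 antigen, was at most 0.189 TPM. Of 9 endothelial markers, ERG (5.77 ± 0.0664 and 5.82 ± 0.129 TPM) and PECAM1 (3.45 ± 0.152 and 2.97 ± 0.0780 TPM) averaged 1 TPM or more and did not pass (log2 fold changes 0.01 and -0.16), and the list summed to 9.64 to 10.1 TPM in non-BCSCs and 9.40 to 9.76 TPM in BCSCs.

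The epithelial adhesion genes EPCAM and CDH1 were at most 0.444 and 0.0591 TPM. The 13 epithelial markers together summed to 330 to 360 TPM in non-BCSCs and 390 to 432 TPM in BCSCs, most of it the keratin KRT18 (322 ± 17.3 and 391 ± 20.8 TPM, log2 fold change 0.28, adjusted p = 0.03 from limma). KRT18 lost its call without any of the 3 non-BCSC libraries or without BCSC replicates 1 or 3 (adjusted p 0.064 to 0.12). Its usual partner KRT8 had a log2 fold change of -0.20 and did not pass.

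Fibrillar collagens, the triple-helical proteins that form the fibres of connective tissue, fell in BCSCs. COL3A1 at chr2:188974373-189012746, the chain of collagen III, was listed at 757, 781 and 784 TPM in non-BCSCs and at 262, 235 and 271 TPM in BCSCs. COL1A2 at chr7:94394895-94431227, a chain of collagen I, was listed at 439.6, 459.7 and 465 TPM in non-BCSCs and at 194, 175 and 198 TPM in BCSCs. Every BCSC value of both genes lay far below every non-BCSC value, with log2 fold changes of -1.59 (standard error 0.06, adjusted p = 1.9e-05 from limma) and -1.26 (0.06, 4.3e-05). COL1A1, the other chain of collagen I, fell less (401 ± 28.5 to 252 ± 11.9 TPM, log2 fold change -0.67), and the collagen V chains COL5A3 and COL5A2 had log2 fold changes of -1.24 and -0.64.

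In all, 5 of the 7 fibrillar collagen genes tested fell, where 4.26% of all genes tested did so, and the number was 5 or 6 with any one library left out. Each of the 7 had its BCSC values below its non-BCSC values, which held for 17.0% of all genes tested, and their median log2 fold change was -0.67 against -0.01 over all genes. Summed over the list, the level was 1982 to 2106 TPM in non-BCSCs and 992 to 1001 TPM in BCSCs. In such bulk samples, fewer cells that make collagen and less collagen RNA per cell cannot be told apart. MIR3606, whose hairpin lies inside COL3A1, was lower as well (log2 fold change -1.49, 155 to 550 reads per library). It has 63 exon bases, 1 of them shared with COL3A1 on the same strand. Its reads cannot be told apart from those of COL3A1 RNA, so this is not a separate fall.

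**Figure D2:**
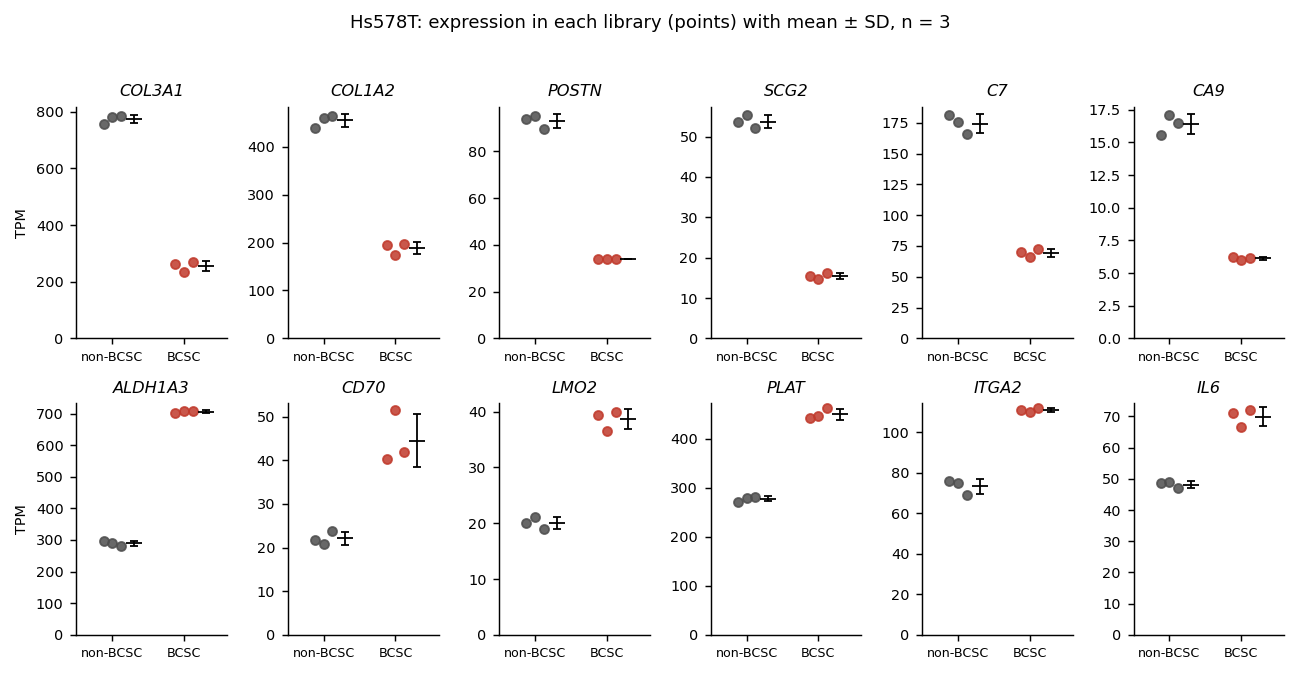
TPM (vertical axes, each from 0) of 6 genes that fell and 6 that rose, with one point per library and the mean ± SD beside each group (n = 3). In each of the 12 genes the BCSC points and the non-BCSC points do not overlap, as for COL3A1 and ALDH1A3.

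Other collagens moved less and in both directions. Among 16 non-fibrillar collagens tested, 2 rose and 2 fell, against 2.90% and 4.26% of all genes. Their median log2 fold change was -0.09. COL22A1, a collagen of tissue junctions, rose from 6.90 ± 0.623 to 12.9 ± 0.248 TPM (log2 fold change 0.82, adjusted p = 0.001 from limma) and passed with any library left out. The other rise was lost without any of the non-BCSC libraries or without BCSC replicate 1. No fall passed without non-BCSC replicate 1 or 2, 1 passed without non-BCSC replicate 3 or BCSC replicates 1 or 3, and 5 passed without BCSC replicate 2.

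Of 25 genes that fold, hydroxylate, trim or crosslink collagen (median -0.14), 7 fell and 0 rose, against 4.26% and 2.90% of all genes. They include ADAMTS14, which cuts the amino-terminal propeptide of procollagen (40.5 ± 3.22 to 26.6 ± 0.160 TPM, log2 fold change -0.59), and P4HA1, the catalytic subunit of a prolyl hydroxylase (183 ± 13.4 to 133 ± 3.60 TPM, -0.46). The number that fell was 4 without non-BCSC replicate 1, 3 without non-BCSC replicate 3, and 2 without non-BCSC replicate 2 or BCSC replicate 1.

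Many matrix glycoproteins and proteoglycans fell. Of 41 tested, 16 fell and 2 rose, against 4.26% and 2.90% of all genes. Their median log2 fold change was -0.15, and 10 fell without non-BCSC replicate 2. POSTN, or periostin, at chr13:37562583-37598844, a matricellular protein that binds collagen and integrins, was listed at 94.0, 95.2 and 89.5 TPM in non-BCSCs and at 33.8, 34.1 and 34.1 TPM in BCSCs. Its BCSC libraries were close to each other and far from the non-BCSC libraries (log2 fold change -1.42, standard error 0.04, adjusted p = 7.9e-06 from limma). OLFML2B, an olfactomedin-domain protein of the matrix, fell from 17.2 ± 1.05 to 5.54 ± 0.485 TPM (-1.47). The Wnt-inducible matricellular gene WISP1, now named CCN4, fell from 17.2 ± 1.00 to 6.52 ± 0.513 TPM (-1.28).

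The small leucine-rich proteoglycans, which coat collagen fibrils, moved in the same direction. DCN, or decorin, fell from 82.1 ± 4.66 to 42.1 ± 3.42 TPM (log2 fold change -0.95, adjusted p = 5.7e-04 from limma), and LUM and BGN, or lumican and biglycan, had log2 fold changes of -0.75 and -0.50, both past the threshold. SPARC, an abundant collagen-binding glycoprotein, fell from 1627 ± 23.4 to 1248 ± 48.7 TPM (-0.38). Fibronectin, FN1, was the most abundant gene of the list, at 7976, 8157 and 8139 TPM in non-BCSCs and at 6528, 5949 and 7089 TPM in BCSCs (-0.31, adjusted p = 0.035 from limma). Its call was lost without any one of the non-BCSC libraries or without BCSC replicate 1 (adjusted p 0.11 to 0.14).

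Some secreted proteins of this class moved the other way. IGFBP3, which binds insulin-like growth factors, rose from 1024 ± 38.8 to 1424 ± 21.2 TPM (log2 fold change 0.48, adjusted p = 0.0017 from limma). SMOC1, a calcium-binding matrix protein, rose as well (0.57), and 23 of the 41 matrix genes did not pass. MXRA8, a cell surface protein outside the lists, fell from 11.9 ± 0.629 to 4.84 ± 0.649 TPM (-1.15).

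**Figure D3:**
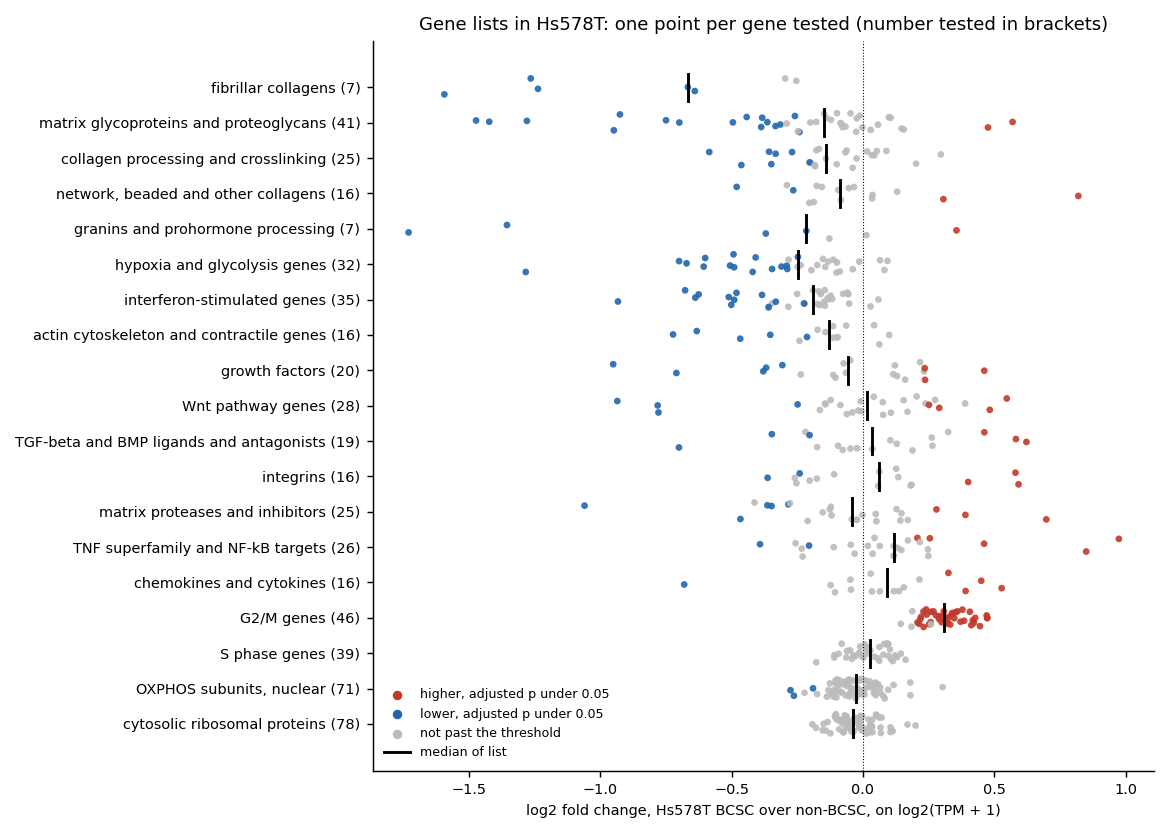
Log2 fold changes (horizontal axis) of the tested members of 19 gene lists (rows), one point per gene, coloured by direction where the adjusted p from limma was under 0.05, with the median of each list as a black bar. The fibrillar collagens have the lowest median (-0.67) and the G2/M genes the highest (0.31).

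Matrix receptors and basement membrane genes were split. Among 16 integrins tested, 3 rose, which held with any library left out, and 2 fell, against 2.90% and 4.26% of all genes. None fell without non-BCSC replicate 2, and 1 fell without non-BCSC replicate 1 or any of the BCSC replicates. ITGA2, the subunit that pairs with ITGB1 to bind collagen, was listed at 75.8, 75.1 and 69.0 TPM in non-BCSCs and at 111, 109.9 and 112 TPM in BCSCs (log2 fold change 0.59, adjusted p = 0.001 from limma). ITGA8 rose from 81.6 ± 3.34 to 122 ± 4.03 TPM (0.58) and ITGB3, a subunit of the vitronectin receptor, from 34.4 ± 0.329 to 45.7 ± 1.87 TPM (0.40). The collagen-binding subunit ITGA2 was thus higher in the fraction where the collagens were lower. The laminin chains LAMA4 and LAMA3, found in basement membranes of vessels and of epithelia, fell and rose at low level (2.06 ± 0.0646 to 0.895 ± 0.0437 TPM and 3.28 ± 0.207 to 4.96 ± 0.112 TPM).

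Proteases and their inhibitors also moved both ways, with 3 of 25 higher and 5 lower, against 2.90% and 4.26% of all genes. PLAT, the tissue plasminogen activator, was listed at 272, 279 and 282 TPM in non-BCSCs and at 442, 447 and 463 TPM in BCSCs (log2 fold change 0.70, standard error 0.04, adjusted p = 1.6e-04 from limma). ADAMTS1, a protease that cuts proteoglycans, rose from 108 ± 0.805 to 142 ± 4.32 TPM (0.39). By contrast, TIMP3, a matrix-bound inhibitor of metalloproteases, fell from 397 ± 9.08 to 287 ± 11.3 TPM (-0.47). The surface protease FAP, a marker of activated fibroblasts, fell from 2.77 ± 0.377 to 0.816 ± 0.287 TPM (-1.06), which rested on 19 to 115 reads per library.

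Several secreted proteins outside the matrix fell as far as the collagens. SCG2, or secretogranin II, at chr2:223596940-223602361, a protein of regulated secretory granules, was listed at 53.6, 55.3 and 52.2 TPM in non-BCSCs and at 15.4, 14.8 and 16.3 TPM in BCSCs. Among genes that reached 10 TPM in either fraction and passed, none fell further (log2 fold change -1.73, standard error 0.05, adjusted p = 7.9e-06 from limma). SCG5, a granule chaperone of the prohormone convertase PC2, was lower, at 25.8, 25.8 and 28.4 TPM in non-BCSCs and at 10.6, 9.14 and 9.73 TPM in BCSCs (-1.36), though 1140 of its 2196 exon bases are shared with a read-through gene on the same strand. In the list of granins and prohormone processing, 4 of 7 fell and 1 rose, against 4.26% and 2.90% of all genes. The glycoprotein hormone STC1 was among the falls (-0.37), while its relative STC2 rose (714 ± 2.32 to 915 ± 23.2 TPM, 0.36, adjusted p = 0.0027 from limma).

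The 15 largest falls also included 2 genes of the complement system, C7 and CFI, for which no list was tested. C7, a component of the membrane attack complex, at chr5:40909492-41020216, was listed at 181, 176 and 166 TPM in non-BCSCs and at 69.9, 66.2 and 72.2 TPM in BCSCs (log2 fold change -1.31, adjusted p = 2.7e-05 from limma). CFI, the protease that inactivates C3b and C4b, fell from 88.2 ± 2.93 to 40.7 ± 2.45 TPM (-1.10), and 1562 of its 5319 exon bases overlap other genes. SPANXD, a cancer-testis gene with near-identical copies whose reads may be shared, had a log2 fold change of -1.09 on 22 to 67 reads per library.

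Growth factors moved in both directions. ANGPT1, a ligand of the endothelial receptor TEK, fell from 42.7 ± 2.50 to 21.6 ± 1.23 TPM (log2 fold change -0.95, adjusted p = 3.2e-04 from limma). PTN, or pleiotrophin, also fell (-0.38), and NTN4, a netrin, rose (0.46). Over the 20 growth factors tested, 3 rose and 5 fell, against 2.90% and 4.26% of all genes. Leaving out any single library other than BCSC replicate 2 left 1 rise and 3 falls.

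In the TGF-beta family, the ligand TGFB3 fell (3.12 ± 0.0810 to 1.55 ± 0.343 TPM, log2 fold change -0.70), whereas the BMP-type ligand GDF6 (139 ± 6.97 to 214 ± 16.0 TPM, 0.62) and the activin antagonist FST, or follistatin (14.4 ± 0.628 to 22.1 ± 1.00 TPM, 0.58), rose. Of 19 ligands and antagonists tested, 3 rose and 3 fell, against 2.90% and 4.26% of all genes. Of these ligands and antagonists, 1 fell without any of the non-BCSC libraries or without BCSC replicate 1. Their target genes were nearly level, with 0 of 18 higher and 2 lower, and none was lower without non-BCSC replicates 2 or 3 or BCSC replicate 1.

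Among the Wnt genes, the secreted antagonists SFRP1 and SFRP2 moved apart. SFRP1 was listed at 57.7, 56.2 and 53.7 TPM in non-BCSCs and at 81.2, 80.9 and 84.1 TPM in BCSCs (log2 fold change 0.55, adjusted p = 0.001 from limma). SFRP2 was low and fell from 2.57 ± 0.205 to 0.864 ± 0.0382 TPM (-0.94), on 21 to 69 reads per library. RNF43, a ubiquitin ligase that removes Wnt receptors, and NKD1, an inhibitor of Dishevelled, are feedback genes of the pathway. RNF43 fell from 7.43 ± 0.204 to 3.92 ± 0.468 TPM (log2 fold change -0.78), and 4370 of its 6329 exon bases overlap other genes. NKD1 was low and fell from 1.71 ± 0.0229 to 0.580 ± 0.0623 TPM (-0.78). Of the 28 Wnt genes tested, 4 rose and 4 fell, against 2.90% and 4.26% of all genes. Without non-BCSC replicates 1 or 2 or BCSC replicate 1, 2 Wnt genes rose. None of the 12 Notch genes passed, and the ligand JAG1 was at 165 ± 1.21 and 177 ± 3.73 TPM (adjusted p = 0.18 from limma).

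Genes of the hypoxia response and of glycolysis were lower in BCSCs. This program is induced by the HIF transcription factors when oxygen is low, and its members bring glucose into cells, split it, keep pyruvate from mitochondria and regulate pH. HIF binds the letters ACGTG, and RefSeq promoters (GRCh38.p14, 250 bases before to 50 after each gene's start) were searched for them on both strands. They were in 12 of the 29 list members with a promoter in the table (41.4%) and in 21.6% of all 27305 promoters. Of the 13 members that fell and had a promoter, 7 held them, as did 5 of the 16 others. The last 100 bases before the start are shown for 3 genes that fell and held the letters there, on the strand of the gene, with the match or its reverse complement CACGT in capitals. The windows are chr9:35673828-35673927 for CA9, chr11:18394463-18394562 for LDHA and chr2:74834027-74834126 for HK2, all on the plus strand.
CA9: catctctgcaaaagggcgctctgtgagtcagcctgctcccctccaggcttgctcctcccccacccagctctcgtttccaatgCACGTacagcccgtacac
LDHA: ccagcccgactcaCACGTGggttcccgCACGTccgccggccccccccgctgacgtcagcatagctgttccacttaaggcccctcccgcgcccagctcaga
HK2: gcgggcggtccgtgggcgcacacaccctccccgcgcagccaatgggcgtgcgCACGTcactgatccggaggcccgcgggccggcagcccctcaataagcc
In LDHA matches on both strands overlap, so that 3 were counted. A match describes the letters in this window and not a bound site. For the fibrillar collagens the letters CCAAT were searched in the same way. They were in 2 of the 6 members with a promoter in the table (33.3%) and in 35.7% of all promoters.

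CA9, a carbonic anhydrase of the cell surface and a widely used hypoxia marker, was listed at 15.6, 17.1 and 16.5 TPM in non-BCSCs and at 6.21, 6.00 and 6.18 TPM in BCSCs. Its groups were far apart (log2 fold change -1.28, standard error 0.06, adjusted p = 4.3e-05 from limma), and 571 of its 1598 exon bases overlap ARHGEF39 on the opposite strand. NDRG1, a stress-inducible gene, fell from 86.2 ± 3.87 to 52.7 ± 3.26 TPM (-0.70), the pyruvate dehydrogenase kinase PDK1 from 36.1 ± 1.79 to 22.3 ± 0.978 TPM (-0.67) and PFKFB4, which makes an activator of glycolysis, from 31.0 ± 0.394 to 20.1 ± 1.52 TPM (-0.61). HK2, a hexokinase, fell from 14.2 ± 0.398 to 11.0 ± 0.221 TPM (-0.35).

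LDHA, lactate dehydrogenase, was among the 10 most abundant genes that passed, at 2351, 2293 and 2226 TPM in non-BCSCs and at 1688, 1657 and 1791 TPM in BCSCs (log2 fold change -0.42, adjusted p = 0.0032 from limma). In total 15 of the 32 genes tested fell and 0 rose, against 4.26% and 2.90% of all genes, with a median of -0.25. The BCSC values lay below the non-BCSC values in 23 of the 32, against 17.0% of all genes. VEGFA, an angiogenic factor of the list, did not pass (-0.11). BCSC replicate 2, the library that stood apart, had the lowest summed level of the list (15801 TPM, against 17065 and 18494 TPM in the other BCSC libraries and 19167 to 19766 TPM in non-BCSCs), and 14 genes fell without it. The number was 10 without non-BCSC replicate 2, 11 without BCSC replicate 1, 12 without non-BCSC replicate 1, 13 without non-BCSC replicate 3 and 15 without BCSC replicate 3.

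Interferon-stimulated genes, which cells switch on against viruses, were lower in BCSCs. Of 35 tested, 12 fell and 0 rose, against 4.26% and 2.90% of all genes, with a median log2 fold change of -0.19. In 23 of them all BCSC values lay below all non-BCSC values, which held for 17.0% of all genes tested. BST2, or tetherin, which holds budding virus at the membrane, was listed at 20.7, 17.3 and 19.9 TPM in non-BCSCs and at 11.7, 11.3 and 12.1 TPM in BCSCs (-0.68, adjusted p = 0.0021 from limma). XAF1, a proapoptotic gene, fell from 5.73 ± 0.739 to 2.51 ± 0.170 TPM (-0.93), IFI44L from 6.97 ± 0.268 to 4.12 ± 0.166 TPM (-0.64) and IFI44 from 16.5 ± 2.20 to 10.3 ± 1.22 TPM (-0.63). The RNA sensor IFIT1 was among the members that did not pass (-0.17). Summed, the list was at 708 to 743 TPM in non-BCSCs and 615 to 627 TPM in BCSCs. The number that fell was 5 without non-BCSC replicate 1 and 7 without non-BCSC replicates 2 or 3 or BCSC replicate 1.

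In antigen presentation by MHC class I, 3 of 15 genes fell and 0 rose, against 4.26% and 2.90% of all genes. Without non-BCSC replicates 1 or 2 or BCSC replicate 1, 1 gene of the list fell. PSMB10, a subunit of the immunoproteasome, fell from 73.2 ± 2.08 to 58.5 ± 1.44 TPM (log2 fold change -0.32) and was called with any library left out.

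Contractile genes of smooth muscle type fell as well. ACTA2, the smooth muscle actin that marks myofibroblasts, was listed at 7.74, 7.43 and 8.63 TPM in non-BCSCs and at 4.16, 4.67 and 5.50 TPM in BCSCs (log2 fold change -0.63, adjusted p = 0.0098 from limma), and 2039 of its 5628 exon bases overlap an antisense gene. ACTG2, its enteric relative, and CALD1, or caldesmon, had log2 fold changes of -0.72 and -0.35. Of 16 contractile genes tested, 5 fell and 0 rose, against 4.26% and 2.90% of all genes. Without non-BCSC replicate 2 or BCSC replicate 1, 3 of the list fell. SNAI2, or Slug, a transcription factor of the epithelial-mesenchymal transition (EMT), was listed at 90.1, 92.0 and 87.7 TPM in non-BCSCs and at 57.7, 60.5 and 58.9 TPM in BCSCs (-0.60, adjusted p = 5.2e-04 from limma). The 21 EMT factors and junction genes tested did not fall as a set, with 3 higher, 2 lower and a median of 0.07. All BCSC values lay above the non-BCSC values in 10 of them and below in 4, against 12.0% and 17.0% of all genes.

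In the list of immediate early and heat shock genes, which answer quickly to handling or heat, 4 of 24 fell and 0 rose. The shares over all genes were 4.26% and 2.90%, and 2 of the list fell without non-BCSC replicate 2 or BCSC replicate 1. The inducible HSP70 genes HSPA1A and HSPA1B, near-identical copies whose reads may be split, had log2 fold changes of -0.34 and -0.50. FOS and FOSB, subunits of AP-1, had log2 fold changes of -0.28 and -0.59 and lost their calls without either of these libraries (adjusted p 0.05 to 0.074). The summed level of the list was 4088 to 4240 TPM in non-BCSCs and 4168 to 4371 TPM in BCSCs. CALR and HSP90B1, chaperones of the endoplasmic reticulum, did not pass (-0.07 and -0.11). DDIT4, a stress gene that restrains mTORC1, fell from 71.2 ± 1.98 to 52.9 ± 3.22 TPM (-0.42, adjusted p = 0.0048 from limma).

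Among rising genes, some of TNF signalling had large changes. CD70, the TNF family ligand of CD27, at chr19:6583183-6604103, was listed at 21.8, 20.7 and 23.8 TPM in non-BCSCs and at 40.3, 51.5 and 41.8 TPM in BCSCs. All BCSC libraries were above all non-BCSC libraries, with BCSC replicate 2 the highest (log2 fold change 0.97, standard error 0.10, adjusted p = 0.0019 from limma). TRAF1, an adaptor of TNF receptors that NF-kB induces, rose from 8.63 ± 0.986 to 16.3 ± 1.28 TPM (0.85), and TNFSF9, the ligand of 4-1BB, from 8.45 ± 0.319 to 12.0 ± 0.880 TPM (0.46). The decoy receptor TNFRSF10D fell (-0.39). Of 26 genes in this list, 5 rose and 2 fell, against 2.90% and 4.26% of all genes. Without non-BCSC replicates 1 or 2 or BCSC replicates 1 or 3, 3 of the list rose. TNFRSF10D was the 1 fall that passed with any one library left out.

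The cytokines IL6 and IL8, now named CXCL8, rose in BCSCs. IL6 was listed at 48.7, 48.9 and 46.9 TPM in non-BCSCs and at 71.2, 66.5 and 72.0 TPM in BCSCs (log2 fold change 0.53, adjusted p = 0.0014 from limma), and IL8 rose from 159 ± 13.2 to 217 ± 7.03 TPM (0.45). The eotaxin CCL26 fell from 5.58 ± 0.325 to 3.11 ± 0.240 TPM (-0.68). Of 16 chemokines and cytokines, 4 rose and 1 fell, against 2.90% and 4.26% of all genes, with 2 rises without BCSC replicate 1.

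LMO2, a LIM-only protein best known from blood stem cells and T cell leukemia, at chr11:33858576-33892076, was listed at 20.1, 21.1 and 18.9 TPM in non-BCSCs and at 39.4, 36.6 and 39.9 TPM in BCSCs (log2 fold change 0.91, standard error 0.06, adjusted p = 2.5e-04 from limma). Every BCSC value was far above every non-BCSC value. SVIP, an inhibitor of protein degradation at the endoplasmic reticulum, rose from 9.81 ± 0.449 to 20.2 ± 2.35 TPM (0.96). PAGE2B, a cancer-testis gene with close copies, was listed at 27.4, 23.4 and 20.2 TPM in non-BCSCs and at 39.5, 36.4 and 44.1 TPM in BCSCs (0.74). YPEL1 rose from 6.07 ± 0.136 to 10.4 ± 0.247 TPM (0.69), with 2480 of the 4681 exon bases of YPEL1 overlapping PPIL2 or other genes. The testis histone gene HIST1H2BA rose on 11 to 30 reads per library (2.58 ± 0.407 to 4.68 ± 0.452 TPM). CDKN1A, the CDK inhibitor p21, rose from 31.1 ± 0.244 to 38.6 ± 1.13 TPM (0.30, adjusted p = 0.007 from limma).

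Short RNA genes made up 6 of the 15 largest rises. These were SNORD42B, SCARNA23, MIR1304, SNORA53, SNORA80B and SNORD114-1, with log2 fold changes between 0.70 and 0.93. Their support was thin, with 6 to 88 reads per library, and 4 of them share exon bases with other genes on the same strand, MIR1304 with all of its 91 bases inside exons of TAF1D. SNORA53 lost its call without any of the non-BCSC libraries or without BCSC replicate 1 (adjusted p 0.057 to 0.077 from limma), and SNORD114-1 without non-BCSC replicates 1 or 2 (0.055 and 0.05). Over all 679 short RNA genes tested, a class set up after these values were seen, 39 rose (5.74%) and 14 fell, against 2.90% and 4.26% of all genes. The libraries were selected by poly-A rather than for short RNAs, so these values may not measure the levels of short RNAs. SNORD17 rose from 1103 ± 37.9 to 1406 ± 49.8 TPM (0.35), while the nuclear RNA MALAT1 fell from 1103 ± 16.6 to 850.2 ± 9.68 TPM (-0.38).

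Many promoters of G2 and mitosis genes hold TTTGAA, the letters of the cell cycle gene homology region. They were in 26 of the 38 members of this list with a promoter in the table (68.4%), on either strand, and in 15.4% of all promoters. The last 100 bases before the start are shown for 4 genes that rose and held the letters there, with the match in capitals. The windows are chr5:163460532-163460631 for HMMR, chr16:23678789-23678888 for PLK1, chr1:43358881-43358980 for CDC20 and chr15:59105046-59105145 for CCNB2, all on the plus strand of GRCh38.p14.
HMMR: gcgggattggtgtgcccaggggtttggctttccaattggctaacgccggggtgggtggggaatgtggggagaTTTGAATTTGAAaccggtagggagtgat
PLK1: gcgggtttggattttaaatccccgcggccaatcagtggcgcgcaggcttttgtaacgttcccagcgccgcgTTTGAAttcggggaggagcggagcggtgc
CDC20: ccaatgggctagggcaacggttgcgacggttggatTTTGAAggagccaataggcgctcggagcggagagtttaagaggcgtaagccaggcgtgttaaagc
CCNB2: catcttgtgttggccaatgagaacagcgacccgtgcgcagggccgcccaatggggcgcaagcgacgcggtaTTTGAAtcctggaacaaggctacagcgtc
HMMR, a hyaluronan-binding spindle protein, holds 2 copies side by side. The log2 fold changes of these genes were 0.42 for HMMR, 0.41 for the mitotic kinase PLK1, 0.35 for CDC20, an activator of the anaphase-promoting complex, and 0.33 for the cyclin CCNB2. The call for CDC20 was lost without non-BCSC replicates 1 or 2 or BCSC replicate 1 (adjusted p 0.078 to 0.083 from limma).

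Genes of G2 and mitosis rose together. Of 46 tested, 42 rose and 0 fell, against 2.90% and 4.26% of all genes. Log2 fold changes lay between 0.14 and 0.47 over the list, with a median of 0.31. CCNB1, the cyclin of mitotic entry, was listed at 243, 239 and 226 TPM in non-BCSCs and at 332, 306 and 346 TPM in BCSCs (0.47, adjusted p = 0.0034 from limma). The kinase NEK2 (0.47), the spindle protein FAM83D (0.47) and the kinesin KIF20A (0.45) had rises of similar size. Summed, the list was at 6077 to 6472 TPM in non-BCSCs and 7590 to 8123 TPM in BCSCs. The changes were small and the count varied, with 17 without BCSC replicate 1, 18 without non-BCSC replicate 2 and 25 without non-BCSC replicate 1, and 28 with the replicate number as a block. None of the 39 genes of S phase passed by limma, PCNA (0.06) and RRM2 (0.14) included, and their median was 0.03. None of the 78 cytosolic ribosomal protein genes passed either (median -0.04). At an unadjusted p under 0.05, 2993 of all genes tested would have been counted.

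The remaining lists held few called genes, where 2.90% of all genes tested rose and 4.26% fell. Among 25 ATF4 targets, 5 rose and 1 fell, but 1 rose without non-BCSC replicate 2, 2 without BCSC replicate 1 and 3 without non-BCSC replicate 1. Of 14 stem cell markers and factors, 1 rose and 4 fell. There was 1 fall without non-BCSC replicates 1 or 2 and 2 falls without non-BCSC replicate 3 or BCSC replicates 1 or 3. There were 0 rises without any of the non-BCSC libraries or without BCSC replicate 1, and 2 without BCSC replicate 2. Of 71 nuclear OXPHOS subunits, 3 fell and 0 rose, with 0 falls without non-BCSC replicates 1 or 2 or BCSC replicate 1. Of 21 EMT factors and junction genes, 3 rose and 2 fell, with 1 rise without non-BCSC replicates 1 or 2 or BCSC replicates 1 or 3 and 1 fall without non-BCSC replicate 2 or BCSC replicate 1. Of 20 CDK inhibitors and p53 targets, 3 rose and 2 fell, with 1 rise without any of the libraries other than BCSC replicate 3, 0 falls without non-BCSC replicates 1 or 2 or BCSC replicates 1 or 3 and 1 fall without either of the others. Of 20 YAP targets, 2 rose and 0 fell, with 0 rises without any of the non-BCSC libraries and 1 without BCSC replicates 1 or 3. Of 48 replication-dependent histones, 1 rose, which held with any library left out, and 1 fell, with 0 falls without any of the non-BCSC libraries or without BCSC replicate 1 and 2 falls without BCSC replicate 3. Of 22 genes of the unfolded protein response, 1 fell, with 2 falls without BCSC replicate 3 and 0 without any other library. Of 31 genes of cholesterol and fatty acid synthesis, 1 rose, with 0 rises without non-BCSC replicates 1 or 2 or BCSC replicates 1 or 3.

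Whether these differences were the same in HCC70 was tested by the interaction of fraction and cell line over 12 libraries, in the 11668 genes that reached the minimum in both lines. Each line was assigned here to its own batch, so line and batch cannot be told apart. With an adjusted p under 0.05, 830 genes (7.11%) differed, 656 (5.62%) with the lower BCSC difference in Hs578T and 174 (1.49%) with the higher one. This split is for the TPM as deposited. By the median of ratios 735 genes differed, and their directions were not counted. In HCC70 the short RNA RPPH1 took 5.32% to 8.05% of TPM in non-BCSCs and 4.03% to 4.80% in BCSCs. Whether such shares move the split was not tested. In the hypoxia and glycolysis list, 13 of 30 genes were lower in Hs578T and 0 higher. CA9, the surface carbonic anhydrase, changed by -1.28 in Hs578T and had a value of 0.40 in HCC70, so the log2 difference between the lines was -1.69 (standard error 0.12, adjusted p = 2.1e-05 from limma). NDRG1 fell in Hs578T and rose in HCC70 (-0.70 and 0.41, the latter with an adjusted p of 0.013 from limma), a difference of -1.11. DDIT4 showed the same pattern (-0.42 and 0.42, difference -0.84).

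For the interferon list, 16 of 35 genes had the lower difference in Hs578T and 0 the higher one. XAF1, BST2 and IFI44L had differences between the lines of -0.96, -0.77 and -0.56, with log2 fold changes of 0.03, 0.09 and -0.08 in HCC70. COL1A1 differed as well (-0.67 and -0.01, difference -0.66, adjusted p = 0.0018 from limma). It was 1 of only 2 fibrillar collagens that reached the minimum in both lines, and COL3A1, COL1A2, POSTN, SCG2, CD70 and LMO2 were not tested for a difference between the lines.

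Of the rises, ALDH1A3 was higher in Hs578T by 1.12 (1.29 and 0.17), PLAT by 0.50 and IGFBP3 by 0.41. STC2 had values of 0.36 and 0.34, with a difference of 0.01 (standard error 0.06, adjusted p = 0.93 from limma). G2/M genes rose in both lines, 42 of 46 in each, with a median of 0.54 in HCC70, where 2.28% of all genes rose and 0.552% fell. The rise was smaller in Hs578T for 12 of the 46, among them PLK1 (difference -0.40, adjusted p = 0.0062 from limma).

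Single libraries moved the number of genes that differed between the lines. It was 437, 291 and 496 without Hs578T non-BCSC replicates 1, 2 and 3, and 322 and 348 without Hs578T BCSC replicates 1 and 2. It was 465 without HCC70 non-BCSC replicate 1 and 321, 550 and 545 without HCC70 BCSC replicates 1, 2 and 3. By contrast it was 1225 without Hs578T BCSC replicate 3, and 763 and 901 without HCC70 non-BCSC replicates 2 and 3.

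**Figure D4:**
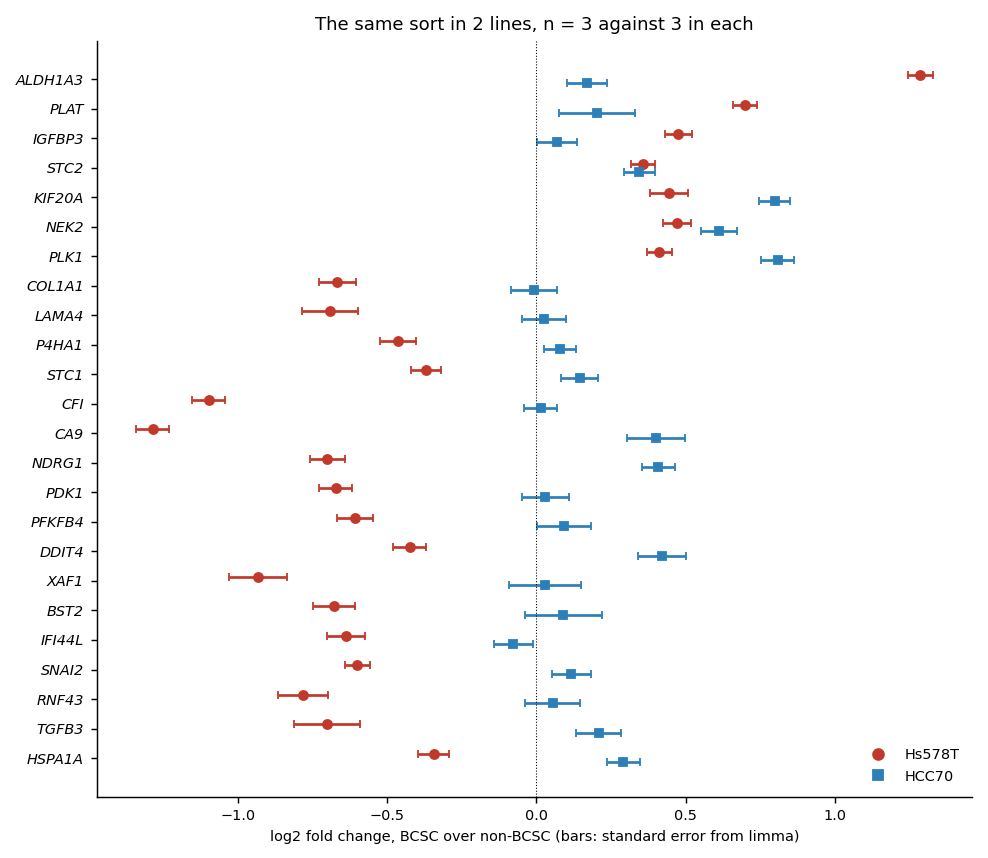
Log2 fold changes, BCSC over non-BCSC, of 24 named genes (rows) in Hs578T (red circles) and HCC70 (blue squares), with standard errors from limma as bars (n = 3 against 3 in each line). CA9 lies at -1.28 in Hs578T and 0.40 in HCC70, and STC2 at 0.36 and 0.34.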

How the data were processed

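RNA of 3 replicates per sorted fraction was selected by poly-A and sequenced by the authors as stranded, paired-end libraries. The submitters' processing notes name HISAT2 2.0.5, featureCounts 1.5.0-p3 and GRCh38, while the step from reads to TPM and whether counting used strand are not given in the sources used here. The values the authors deposited are TPM, normalized for length and scaled to 1000000 per library, so a few abundant RNAs can shift all others (RMRP took 8.53% to 10.9% and RPPH1 2.56% to 3.17% of all TPM). Because low values step by whole reads, reads were recovered for all 19283 genes from the ratios between libraries. They are lower bounds where a gene's counts share a divisor, and served for read support and for limma-voom.

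Genes averaging 1 TPM or more were tested by limma 3.58.1 (R 4.3.3) with a trend on log2(TPM + 1), two-sided, with Benjamini-Hochberg adjustment over all genes tested and a threshold of 0.05. An interaction model of fraction and line used 12 libraries. The scripts were tested on simulated data. An exact permutation test of 3 against 3 cannot go below 0.1, so none is given. Replicates differed by more than counting noise (mean chi-square per gene 2.11 to 17.4 in Hs578T), and none was treated as a duplicate.

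The comparison, its markers and the 37 gene lists (1086 genes) were chosen with earlier results of these data known. The rule for named genes took the 15 largest rises and falls among called genes whose groups did not overlap and that reached 10 TPM in one fraction, up to 4 called members per list, the 2 most abundant members where fewer than 2 passed, the markers, and the 10 most abundant called genes. It picked 145 genes, and 101 of them are named, by preference those whose call held with each library left out. Another 14 were named after their values were seen: HK2, HMMR, PLK1, CDC20 and CCNB2 for their promoters, and COL5A2, LUM, BGN, SMOC1, VEGFA, IFIT1, PTPRC, EPCAM and CDH1 as list members. Locations are from GENCODE 44 and promoters from RefSeq, matched by symbol after 1364 older symbols were updated. Exon overlap is not given beside every gene. Exon bases that overlap other genes were also 2266 of 6829 in ITGB3, 640 of 1626 in PSMB10, 1852 of 2163 in CD68 and 2535 of 6615 in XAF1. Alternatives were a pseudocount of 0.1, a minimum of 10 TPM, no filter, median of ratios, quantile normalization, a replicate block, limma-voom, each library left out and, added after seeing the data, TPM without RMRP and RPPH1. Software also included Python 3.11.15 with numpy 2.4.6, pandas 2.3.3 and matplotlib 3.10.9 for the figures. A few genes are not reported here.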

Additional observations from a re-analysis of the deposited data

Results flagged for a closer look

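The BCSC difference was not the same in Hs578T and HCC70, by the interaction test of limma, for 46 of the 72 named genes tested in both lines. Over all 11668 genes tested in both lines the share was 7.11%. Genes were named largely for their change in Hs578T, which enters this test, so a higher share follows in part from the choice. The values here are the log2 difference in Hs578T minus that in HCC70. For 28 genes the call held with any 1 of the 12 libraries left out. Of these, 4 were higher in Hs578T: ALDH1A3 (1.12), SVIP (1.15), PLAT (0.50) and IGFBP3 (0.41). The matrix and secreted genes that were lower were COL1A1 (-0.66), COL5A2 (-0.78), P4HA1 (-0.54), LAMA4 (-0.72), CFI (-1.11), STC1 (-0.52) and TGFB3 (-0.91). Hypoxia and stress genes that were lower were CA9 (-1.69), NDRG1 (-1.11), PDK1 (-0.70), PFKFB4 (-0.70), DDIT4 (-0.84), HSPA1A (-0.64), HSPA1B (-0.72), FOS (-0.49) and FOSB (-0.96). Interferon-stimulated genes that were lower were XAF1 (-0.96), BST2 (-0.77) and IFI44L (-0.56). The others were SNAI2 (-0.72), RNF43 (-0.84), NKD1 (-0.85), TNFRSF10D (-0.44) and PLK1 (-0.40).

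For the other 18 the call was lost without at least 2 of the 12 libraries in turn, with adjusted p values of limma of up to 0.12. The genes higher in Hs578T were TRAF1 (0.73), SCARNA23 (1.58), SNORA53 (0.92), SNORA80B (1.00), SNORD17 (0.56), YPEL1 (0.40), LAMA3 (0.32), ITGA2 (0.34), IL8 (0.47) and NTN4 (0.32). The genes lower in Hs578T were ANGPT1 (-0.51), IFI44 (-0.57), CCNB1 (-0.31), KIF20A (-0.35), CDC20 (-0.38), LDHA (-0.36), HK2 (-0.37) and CD68 (-0.56). TRAF1 lost its call without Hs578T non-BCSC replicate 2 or BCSC replicate 1 alone.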

How the results depend on the processing

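The count of 953 genes was 1603 by limma-voom, with 791 higher, and by the median of ratios 620 were higher and 573 lower, which turned the balance of 386 and 567. The cause was not tested. With single libraries left out, the count ranged from 343 to 865, with 144 to 387 higher and 199 to 502 lower, and the count of genes that differed between the lines ranged from 291 to 1225 (830 with all). Replicate numbers were not found to pair the fractions (correlations of same-numbered Hs578T libraries 0.046, -0.063 and -0.049), and with them as a replicate block 669 genes passed, 620 of them shared with the 953, and 302 differed between the lines. None of the 953 genes changed sign under any alternative. Over 111 named genes and 14 alternatives, 1495 values kept direction and side of the threshold, 29 lost the call and 6 gained it. Genes were named by preference where the call held with each library left out, so this tally cannot measure stability. Of the 126 called genes that the naming rule picked, 42 lost their call when a single library was left out. The median over all genes stayed between -0.027 and 0.013. CD24, which did not pass, reached 0.000996 without non-BCSC replicate 1 and ranged down to -0.117. FN1 lost its call without a filter (adjusted p = 0.3 by limma) and with the block (0.08), KRT18 likewise (0.06 and 0.059). Genes with few reads, such as SNORD42B and SCARNA23, are limited by counting noise.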
